A study of Mus musculus with 12 samples.

Results

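The homeobox, paired and T-box genes described here were chosen by name alone: every protein-coding gene called Pax, Tbx, Lhx, Irx or Dlx with a number, or Nkx with a pair of numbers. This gave 56 of the 21631 protein-coding genes on chromosomes 1 to 19 and X, with 9 Pax, 13 Tbx, 8 Lhx, 6 Irx, 6 Dlx and 14 Nkx genes. Their peaks were those that overlapped the RefSeq span of the gene on mm10, extended by 1 kb at each end. There were 109 such peaks of 58548 for H3K4me3, 174 of 105301 for H3K27me3 and 14 of 62547 for H3K27ac.

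These genes encode transcription factors that lay out the body plan. Homeodomain (Lhx, Irx, Dlx, Nkx), paired-domain (Pax) and T-box (Tbx) proteins each bind DNA and set the identity of neural, muscle, limb, heart, kidney or endocrine cells in the embryo. In cells of other lineages most of them are held silent by the Polycomb complexes. Polycomb repressive complex 2 methylates histone H3 at lysine 27 (H3K27me3) over wide domains, and H3K4me3, the mark of promoters that are active or ready to be used, can sit beside it at such genes. H3K27ac marks active promoters and enhancers.

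Mouse intestinal organoids, grown from isolated crypts, received vehicle or 25 µM arachidonic acid (AA), a dietary omega-6 fatty acid, for 6 days. CUT&RUN, which tethers a nuclease to an antibody and sequences the DNA it cuts free beside the mark, was done in 2 vehicle and 2 AA libraries per mark, 12 in all. The culture medium of both groups held EGF, Noggin, R-spondin and the GSK3 inhibitor CHIR-99021. The sample labels name no genotype or sex, the series' design text speaks of Ptger knockout organoids, and the genotype is left undecided here.

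The value used is the deposited peak score, a scaled mean coverage per base, so that scores compare peaks of different length within a mark. A change is the difference of log2(score + pseudocount), AA minus vehicle, and a peak was called when limma gave a Benjamini-Hochberg adjusted p below 0.05 over all peaks of the mark. Whether replicate libraries stem from different cultures or mice is not stated, so p-values cover library-to-library spread that may be technical alone. The depth was low: the median peak held 1.19 to 3.38 fragments per base, and the AA libraries of H3K4me3 (1.37 and 1.46) were shallower than the vehicle libraries (3.38 and 2.35). AA replicate 2 of H3K4me3 stood apart, with rank correlations over peaks of 0.64, 0.65 and 0.72 with the other libraries, which correlated at 0.81 to 0.82 among themselves. Over all H3K27me3 peaks the libraries correlated far less, at 0.12 to 0.29, with 0.19 between the vehicle replicates and 0.29 between the AA replicates, and over H3K27ac peaks at 0.51 to 0.65. The 11 epithelial marker genes examined, Epcam, Cdh1 and Vil1 among them, all carried H3K4me3 and H3K27ac above the median peak score. For H3K27ac, none of the 11 fibroblast, 5 endothelial and 7 neuron and glia genes and 3 of the 7 blood genes did so. For H3K4me3, 3 fibroblast, 4 endothelial, 3 neuron and glia and 3 blood genes did so.

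In vehicle-treated organoids the genes carried H3K27me3 far more often than other genes, H3K4me3 at a share that depended on the threshold, and H3K27ac rarely. A gene was counted as marked when a peak at it reached the median score of the mark in both vehicle libraries. H3K27me3 marked 49 of the 56 (87.5%), beside 24.1% of all protein-coding genes. H3K4me3 marked 33 (58.9%, beside 64.5%), though 8 (14.3%, beside 55.3%) when the 75th percentile of scores was asked for, and H3K27ac marked 3 (5.36%, beside 49.5%). These are shares of genes in the same libraries and were not tested against each other.

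The H3K27me3 domains were wide as well as frequent. Among the 54 genes with any H3K27me3 peak, the median share of the extended gene span under peaks was 93.2%, beside 11.9% for all genes with a peak. The median length covered was 8080 bp, beside 2930 bp. Shares of the span are not matched for gene length: the median span was 8686 bp for the 56 genes and 17329 bp for all genes. In 43 of the 56 genes at least 50% of the span was covered (76.8%, beside 8.12% of all genes), and 18 were covered from end to end. The strongest H3K27me3 peak, taken per gene as the highest mean over the 4 libraries, had a median length of 17069 bp, and in 45 of the 54 genes its vehicle score lay at or above the 99th percentile of all H3K27me3 peaks. The longest, 52037 bp, lay over Nkx2-3, a regulator of gut mesenchyme and spleen.

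**Figure D1:**
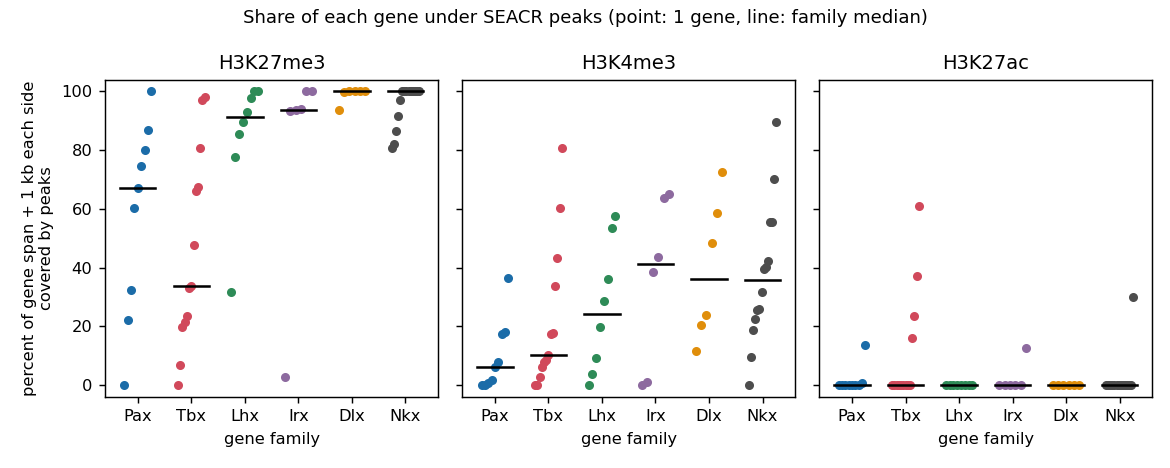
Percent of each gene's span, extended by 1 kb, under SEACR peaks of H3K27me3, H3K4me3 and H3K27ac, by family; each point is 1 gene and each line the family median. H3K27me3 covers the 14 Nkx genes by more than 80% each, while the Tbx genes range from 0 to 98.2% and most genes have no H3K27ac peak.

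The families differed in how much of the gene lay under H3K27me3. All 14 Nkx genes and all 6 Dlx genes were covered by at least 50% of their span, and 9 Nkx and 4 Dlx genes were covered whole. These are short genes, with median spans of 3653.5 and 4908.5 bp. Among the Tbx genes, with a median span of 21017 bp, 5 of 13 were covered by at least 50% and none whole. Neighbouring Dlx genes shared their domain: a single 33006 bp peak (chr2:71522352-71555357) spanned Dlx1 and Dlx2, and a 17331 bp peak (chr6:6868093-6885423) touched Dlx5 and Dlx6, so these pairs are not independent measurements.

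By their combination of marks at the median score the genes fell into 2 large groups. The border between them depends on the H3K4me3 threshold. H3K4me3 was counted at 33 genes here, at 8 with the 75th percentile and at 48 (85.7%, beside 73.9% of all genes) when any peak above 0 in both vehicle libraries counted. In 28 genes (50%, beside 8.22% of all genes) both H3K4me3 and H3K27me3 passed the median score, and these included Pax6 and Nkx2-2, which act in enteroendocrine cells, Pax9, Lhx1, Irx3, Irx5, Dlx1, Dlx2, Nkx2-3 and Nkx6-1. In 21 genes (37.5%, beside 9.41%) H3K27me3 alone did, among them Pax1, Pax7, the heart factors Tbx5, Tbx20 and Nkx2-5, and the lung and thyroid factor Nkx2-1. Of the 109 H3K4me3 peaks, 92 overlapped an H3K27me3 peak at these genes and 82 lay fully inside one. Such an overlap was found at 45 genes. Tbx5, Tbx20, Nkx2-1 and Nkx2-5 of the second group were among them, with H3K4me3 peaks that did not reach the median score in both vehicle libraries. Bulk libraries do not tell apart both marks on the same chromatin from cells that differ.

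The remaining 7 genes stood outside this pattern. Tbx3, Pax8 and Tbx10 carried H3K4me3 with H3K27ac and no H3K27me3 above the median score. Tbx6 and Nkx1-2 passed for H3K4me3 alone, and Pax4 and Irx6 passed for no mark. Weaker peaks that did not pass were present for H3K27ac at Tbx6 and Nkx1-2 and for H3K27me3 at Nkx1-2. The H3K27ac peak of Tbx6 lay close below the cut, with a mean vehicle score of 0.171 beside vehicle library medians of 0.188 and 0.175. Tbx3 encodes a repressor needed in limb, heart and mammary gland, and Pax8 directs thyroid and kidney development. Pax4, another enteroendocrine factor, had no H3K4me3 or H3K27ac peak and an H3K27me3 peak of 0.0701 and 0.0883 in the vehicle libraries.

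**Figure D2:**
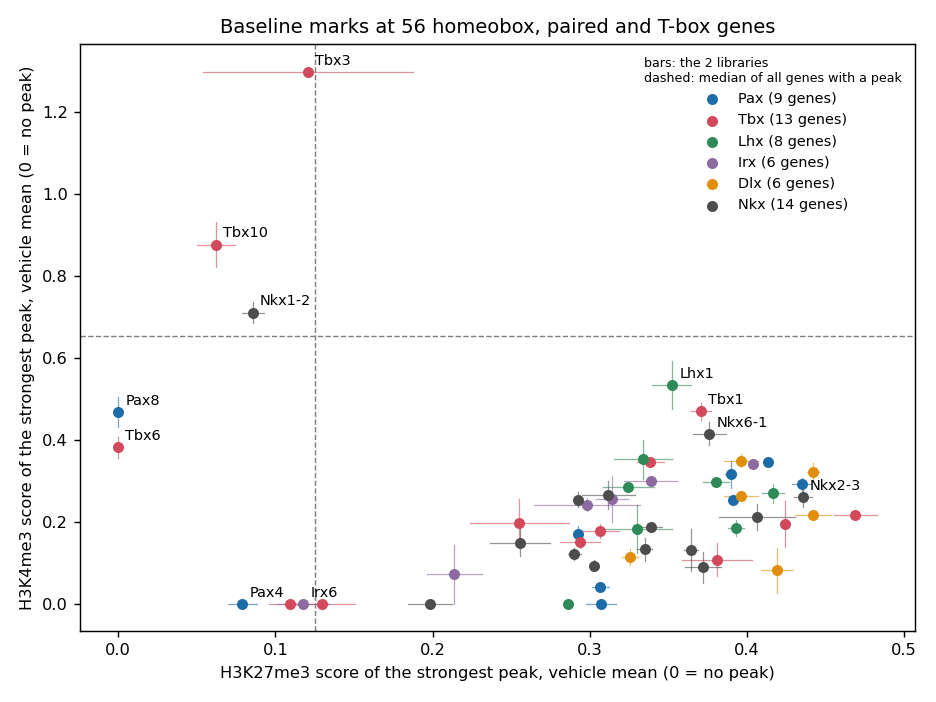
Vehicle score of the strongest H3K27me3 peak (x axis) and strongest H3K4me3 peak (y axis) of each of the 56 genes, with bars joining the 2 vehicle libraries and dashed lines at the medians of all genes with a peak. Of the 49 genes with an H3K4me3 peak, 3 lie above that mark's all-gene median of 0.654 (Tbx3, Tbx10 and Nkx1-2), and all 3 lie left of the H3K27me3 median of 0.125.

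For several of these genes the peak belonged to more than the gene itself. The H3K4me3 and H3K27ac peaks that put Tbx10 among the active genes lay at its far end, the H3K4me3 peak from 6198 to 10162 bp beyond its start site, and overlapped the neighbouring gene Nudt8. The start of Tbx10 itself lay in a weak H3K27me3 peak and in no H3K4me3 peak. The peaks over the start of Tbx6, a factor of the presomitic mesoderm, also overlapped Ypel3, and the strongest H3K4me3 peak assigned to Lhx1, a kidney and head organizer factor, lay outside its span and overlapped Aatf. Without the Tbx10 peaks, H3K27ac above the median score was left at Tbx3 and Pax8.

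The promoter sequences were rich in CG dinucleotides, a feature that the choice by name did not use. RefSeq promoter windows (GRCm38.p6, from 250 bases before to 50 after the start site) were at hand for 39 of the 56 genes, 49 windows in all. They held a median of 17 CG, beside 13 in 21263 windows of all protein-coding genes, with a median GC content of 60% beside 56.3%. H3K27me3 peaks overlapped 46 of the 49 windows, H3K4me3 peaks 24 and H3K27ac peaks 1, that of Tbx6. The windows held from 1 to 40 CG each. The 250 bases before the start site are printed for 4 genes whose windows held from 4 to 40 CG. They run 5′ to 3′ on the gene's strand, with each CG in capitals. Nkx6-1 (chr5:101664712-101664961, minus strand), a factor of beta cells and motor neurons, had the most CG of the 49 windows (40 in 300 bases) and lay under both H3K4me3 and H3K27me3. Lhx4 (chr1:155742028-155742277, minus strand), a pituitary and motor neuron factor, lay under both and gained H3K27me3 with AA. Nkx1-2 (chr7:132599638-132599887, minus strand), a homeobox gene of the embryo's tail bud, is the gene at which both methylation marks were called. Its printed bases lie outside both called peaks, which begin 41 bp (H3K27me3) and 416 bp (H3K4me3) into the gene. An H3K27me3 peak from -8326 to -118 bp, which was not called, covers part of them, and no H3K4me3 peak does. Tbx10 (chr19:3992502-3992751, plus strand) had 4 CG in 300 bases and lay under a weak H3K27me3 peak alone.
Nkx6-1: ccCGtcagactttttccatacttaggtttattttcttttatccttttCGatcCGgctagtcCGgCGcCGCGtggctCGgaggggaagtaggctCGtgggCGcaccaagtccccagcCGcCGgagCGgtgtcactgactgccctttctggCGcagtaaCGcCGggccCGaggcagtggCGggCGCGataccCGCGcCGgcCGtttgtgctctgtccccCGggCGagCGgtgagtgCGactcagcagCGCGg
Lhx4: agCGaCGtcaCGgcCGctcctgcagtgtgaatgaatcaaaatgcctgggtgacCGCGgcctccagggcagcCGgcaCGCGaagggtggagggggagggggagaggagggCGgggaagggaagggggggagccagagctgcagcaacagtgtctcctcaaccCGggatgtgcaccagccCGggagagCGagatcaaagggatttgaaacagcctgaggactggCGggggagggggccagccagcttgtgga
Nkx1-2: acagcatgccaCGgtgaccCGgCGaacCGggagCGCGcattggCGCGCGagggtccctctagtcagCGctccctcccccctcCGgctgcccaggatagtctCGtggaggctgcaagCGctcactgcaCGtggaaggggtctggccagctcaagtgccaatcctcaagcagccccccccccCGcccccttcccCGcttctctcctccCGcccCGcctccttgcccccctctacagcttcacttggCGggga
Tbx10: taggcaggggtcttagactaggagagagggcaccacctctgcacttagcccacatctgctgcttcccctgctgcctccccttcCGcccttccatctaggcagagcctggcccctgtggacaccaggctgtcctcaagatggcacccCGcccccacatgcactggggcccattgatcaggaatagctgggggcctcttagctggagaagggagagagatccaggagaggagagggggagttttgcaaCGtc
In these 250 bases the CG count was 30 in Nkx6-1, 14 in Lhx4, 19 in Nkx1-2 and 3 in Tbx10. Letters that proteins of these families are known to bind were counted in the 300-base windows. TAATTA, a homeodomain core, stood on either strand in 2 of 49 windows (4.08%, beside 4.53% of all windows), CACTTNA, an Nkx core, in 6 (12.2%, beside 10.8%), Nkx1-2 among them, and GGTGTGA, a T-box site, in 0 (0%, beside 3.68%). None of these motifs contains another, and a match is a description, not a site.

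The next comparison asked whether H3K27me3 at these genes differed between AA and vehicle. Of the 174 peaks, 5 were higher in AA by limma and 0 lower, at Nkx1-2, Lhx4, Tbx1, Pax3 and Tbx4, beside 0.498% of all H3K27me3 peaks higher and 0.0475% lower (0.545% in either direction). These shares are not matched for peak length, which had a median of 2529.5 bp at these genes and 1344 bp over all. Among peaks of at least 10000 bp, 2 of 42 at these genes and 46 of 1044 of all were called higher. At an unadjusted p below 0.05 there were 37 of the 174 (21.3%, beside 9.39% of all peaks). As genes, this is 5 of the 54 with a peak, beside 3.01% of all genes with a peak called higher and 0.311% lower. In bulk libraries a change in the share of cells that carry a mark and a change in the amount per cell cannot be told apart. Each call rests on all 4 libraries: with 1 left out, Lhx4, Tbx1, Pax3 and Tbx4 never passed. Nkx1-2 passed without vehicle replicate 2 and not otherwise. Calls over all peaks of the mark became rarer in those fits too. The changes then ranged from 0.28 to 0.36 at Lhx4, 0.29 to 0.34 at Tbx1 and 0.24 to 0.27 at Pax3. At Tbx4 they ranged from 1.07 to 1.70 and at Nkx1-2 from 1.43 to 1.60.

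Nkx1-2 had the largest H3K27me3 change at the strongest peak of the 54 genes. The 5293 bp peak over its body (chr7:132594304-132599596) scored 0.0786 and 0.0925 in vehicle and 0.325 and 0.287 in AA. Both AA libraries lay above both vehicle libraries, and the log2 difference was 1.52 ± 0.26 (SE; limma adjusted p = 0.000176). A second peak, of 8209 bp and lying from -8326 to -118 bp relative to the start site, scored 0.101 and 0.0937 in vehicle and 0.227 and 0.216 in AA, a change of 0.97 that did not pass (limma adjusted p = 0.170). The body peak rested on 1.14 to 3.75 fragments per base.

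H3K4me3 at Nkx1-2 moved the other way. Its 2991 bp peak (chr7:132596231-132599221), which begins 416 bp into the gene and lies inside the H3K27me3 peak, scored 0.686 and 0.736 in vehicle and 0.587 and 0.270 in AA. Both AA libraries lay below both vehicle libraries (change -0.79 ± 0.21, SE; limma adjusted p = 0.0145), but AA replicate 2 carried most of the difference: without it the change was -0.26 (limma adjusted p = 0.209). The H3K27ac peak inside the gene scored 0.174 and 0.110 in vehicle and 0.145 and 0.202 in AA, and the groups overlapped. Nkx1-2 was the single gene of the 56 with a call in both marks.

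**Figure D3:**
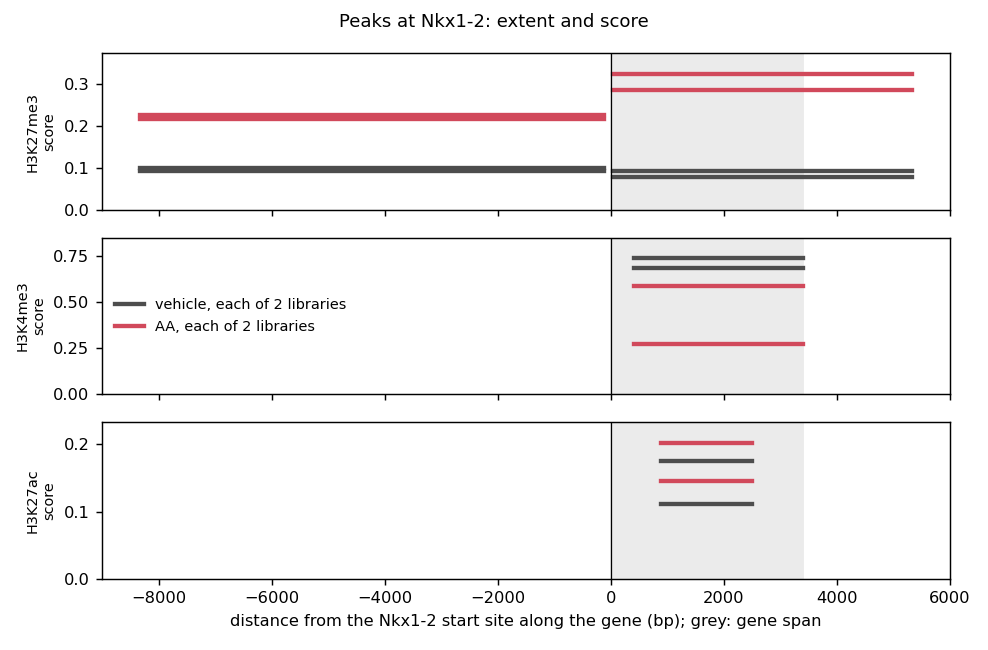
Peaks at Nkx1-2 by distance from the start site along the gene (x axis, bp) and their score in each library (y axis), for H3K27me3, H3K4me3 and H3K27ac; each line spans a peak, vehicle libraries in dark grey and AA libraries in red, with the gene span shaded. The H3K27me3 lines of AA lie above those of vehicle in both peaks, the H3K4me3 lines of AA lie below, and the H3K27ac lines are interleaved.

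The other called H3K27me3 changes were small rises of strong domains, except at Tbx4. The 44267 bp domain over the start of Pax3, a neural crest and muscle factor (chr1:78179249-78223515), scored 0.441 and 0.429 in vehicle and 0.525 and 0.524 in AA (change 0.25 ± 0.06, SE; limma adjusted p = 0.0243). Lhx4 (chr1:155727444-155754476) scored 0.389 and 0.372 in vehicle and 0.497 and 0.469 in AA (0.32 ± 0.07, SE; limma adjusted p = 0.00851). Tbx1, a pharyngeal arch factor, scored 0.377 and 0.365 in vehicle and 0.469 and 0.470 in AA over the body of the gene (chr16:18578216-18586921; 0.32 ± 0.07, SE; limma adjusted p = 0.0121). In all 3 the groups did not overlap and the libraries of a group lay close together. At Tbx4, a hindlimb and lung mesenchyme factor, the called peak was a 609 bp stretch inside the gene (chr11:85910699-85911307) with 0.0878 and 0.0600 in vehicle and 0.310 and 0.189 in AA (1.38 ± 0.36, SE; limma adjusted p = 0.0455), on 0.742 to 3.29 fragments per base. Its main 18261 bp domain scored 0.403 and 0.359 in vehicle and 0.416 and 0.427 in AA and was not called.

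**Figure D4:**
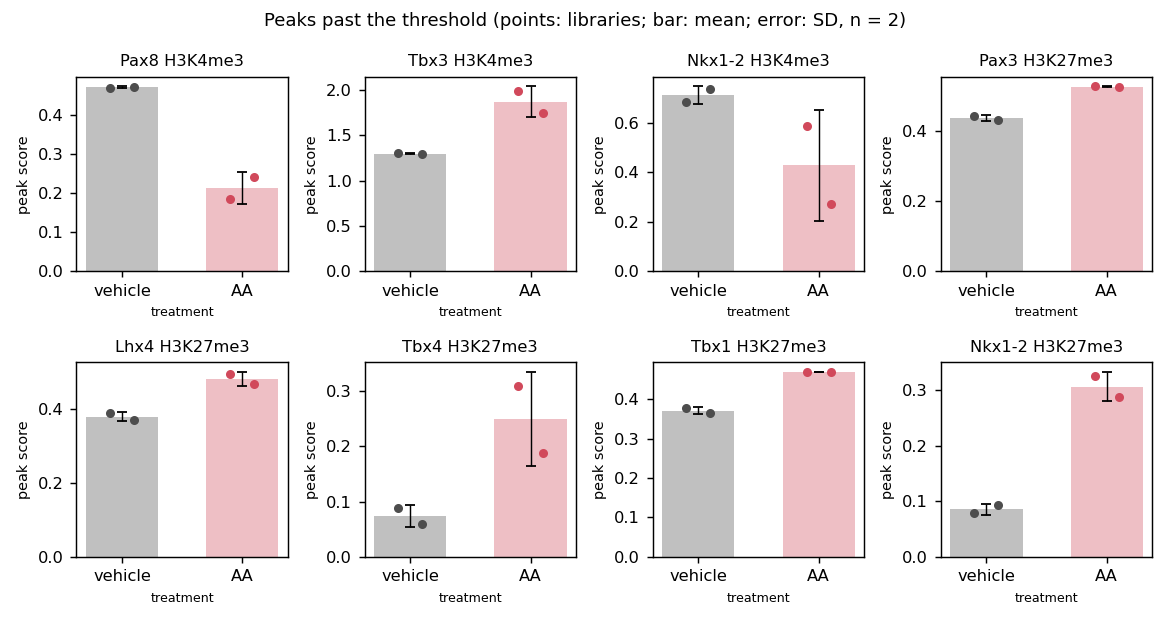
Scores of the 8 peaks at these genes that passed limma at an adjusted p below 0.05, vehicle and AA (x axis), with the score on a linear y axis from 0; points are the 2 libraries of each group, bars their mean and error bars the SD. The groups do not overlap in any of the 8 peaks, and the spread in score is widest in the AA libraries of Nkx1-2 H3K4me3, followed by Tbx3 H3K4me3.

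With the deposited scaling, a small upward shift of H3K27me3 was shared by most of the genes and by H3K27me3 peaks at large. At the strongest peak 47 of the 54 genes had a change above 0, and in 37 both AA libraries lay above both vehicle libraries (68.5%, beside 34.5% of all genes with a peak), against 5 below (9.26%, beside 14.7%). Yet the median change at the strongest peak was 0.16 for these genes and 0.15 for all genes, so the size of the change was nearly that of other genes. Over all 174 peaks the median was 0.15, beside 0.12 for all peaks, and 75 had AA above vehicle (43.1%, beside 26.3%) and 23 AA below (13.2%, beside 13.4%).

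Long peaks were looked at on their own. In peaks of at least 10000 bp, where scores rest on more fragments, AA lay above vehicle in 69.0% of the 42 peaks at these genes and in 63.0% of all 1044. Within that range the shares went apart: 47.6% of 21 peaks beside 62.2% of all from 10000 to 20000 bp, and 90.5% of 21 peaks beside 67.2% of all from 20000 bp up. The median changes from 10000 bp up were 0.16 and 0.18, those from 10000 to 20000 bp 0.08 and 0.18, and those from 20000 bp up 0.19 and 0.16, at these genes and at all. From 10000 bp up, 2 of 42 peaks at these genes (Pax3 and Lhx4) and 46 of 1044 of all were called higher. In the length class just below, which holds the called peaks of Nkx1-2 and Tbx1, it was 2 of 23 and 116 of 4086. In the shortest class, which holds that of Tbx4, it was 1 of 80 and 230 of 80036. The difference in call shares at like length was not tested. The shift also depends on scaling: the median log2 score of all H3K27me3 peaks was 0.11 higher in AA than in vehicle, and the median change of the 174 peaks became 0.04 with each library centred on its median and -0.02 after quantile normalization, where the direction flips. With centring the calls at Pax3 (change 0.14, limma adjusted p = 0.717), Lhx4 (0.21, limma adjusted p = 0.637), Tbx1 (0.21, limma adjusted p = 0.639) and Tbx4 (1.27, limma adjusted p = 0.306) were lost, and Nkx1-2 passed (1.41, limma adjusted p = 0.0195). The change at Tbx4 stayed near its size, as did that of Nkx1-2. The summed H3K27me3 score of the fibroblast genes was 1.79 and 1.89 in vehicle and 2.5 and 2.12 in AA. It was 0.690 and 0.597 against 1.07 and 0.908 for blood genes, and 1.27 and 1.32 against 1.35 and 1.37 for neuron and glia genes. The groups overlapped for endothelial (0.735 and 0.881 against 0.781 and 0.760) and epithelial genes (0.501 and 0.780 against 0.697 and 0.843). Of 6 epithelial genes with a peak 1 was called higher, Lgr5 (1.13, limma adjusted p = 0.000168), beside 2.53% of all genes. No other listed marker gene was called. The part of other cells was not tested.

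**Figure D5:**
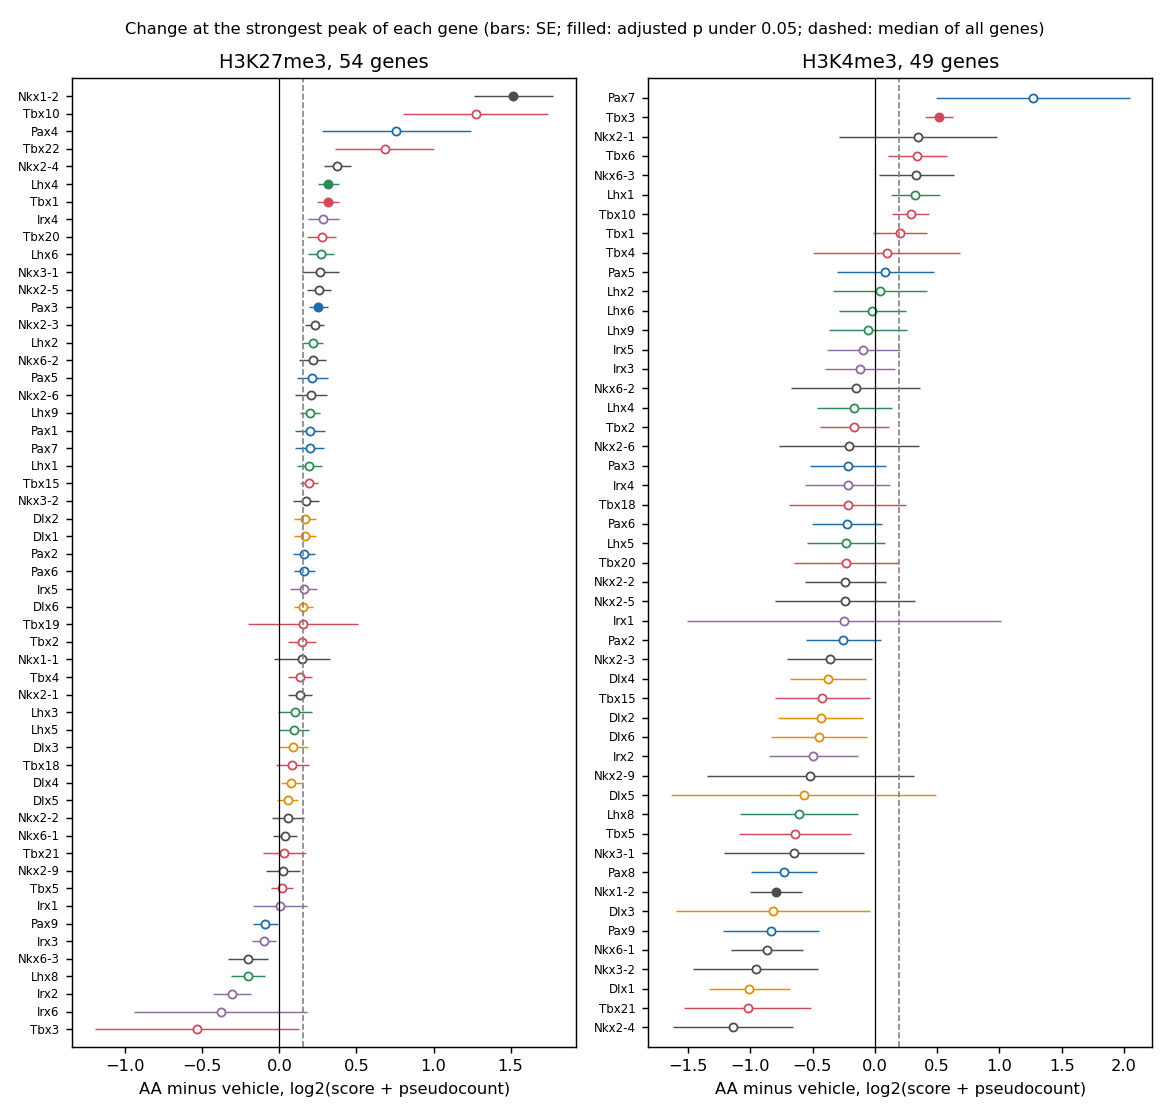
Change at the strongest peak of each gene, AA minus vehicle in log2(score + pseudocount) on the x axis, for H3K27me3 (54 genes) and H3K4me3 (49 genes), 1 gene per row on the y axis, coloured by family; bars are SE, filled points passed limma, and dashed lines are the medians of all genes with a peak. For H3K27me3, 47 genes lie above 0 around the all-gene median, and for H3K4me3, 38 lie below 0 while the all-gene median is above it.

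Of the 5 genes with the highest H3K27me3 score in vehicle, Pax3 was called (given above) and the other 4 were not. Tbx15, a skeletal factor, had the highest vehicle level, with 0.483 and 0.455 in vehicle and 0.552 and 0.528 in AA. Dlx6 scored 0.453 and 0.431 in vehicle and 0.504 and 0.488 in AA, and Dlx4 0.438 and 0.446 against 0.493 and 0.445. AA lay above vehicle at Tbx15 and Dlx6, and the groups overlapped at Dlx4. Nkx2-3, the longest domain, scored 0.441 and 0.430 in vehicle and 0.522 and 0.509 in AA, without overlap, and just missed the threshold (change 0.23, limma adjusted p = 0.0657).

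The Irx genes, patterning factors of the nervous system and heart, were the family that least followed the rise. Irx2 scored 0.304 and 0.325 in vehicle and 0.246 and 0.249 in AA (change -0.31), and Irx3 0.406 and 0.403 against 0.389 and 0.362 (change -0.10). AA lay below vehicle at both. Irx4 (0.332 and 0.265 in vehicle, 0.375 and 0.363 in AA) and Irx5 (0.322 and 0.356 against 0.379 and 0.384) had AA above vehicle, and the median of the 6 Irx genes was -0.05. None of these was called. Other genes with a change below 0 were Pax9 (-0.09), Lhx8 (-0.20), Nkx6-3 (-0.20), a gastric factor, and the weak peaks of Irx6 (-0.38) and Tbx3 (-0.53).

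The third comparison concerned H3K4me3. Of 109 peaks 1 was called higher in AA, at Tbx3, and 2 lower, at Pax8 and Nkx1-2, beside 1.54% of all H3K4me3 peaks higher and 1.38% lower (2.92% in either direction). At an unadjusted p below 0.05 there were 18 (16.5%, beside 16.2% of all peaks). By gene, 1 of 49 had a higher call, beside 5.91% of all genes with a peak, and 2 a lower call, beside 2.95%. Without a vehicle replicate no call was kept, and calls over all peaks of the mark were rare too. The changes stayed near their size without vehicle replicate 1 or 2. They were 0.52 and 0.51 for Tbx3, -1.07 and -1.06 for Pax8, and -0.84 and -0.74 for Nkx1-2. Without AA replicate 1 or 2 they were 0.42 and 0.61 for Tbx3, -0.89 and -1.24 for Pax8, and -1.32 and -0.26 for Nkx1-2.

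Tbx3 carried the strongest H3K4me3 of the 56 genes and gained more. The 8525 bp peak over the gene (chr5:119669116-119677640) scored 1.30 and 1.29 in vehicle and 1.99 and 1.75 in AA, without overlap (change 0.52 ± 0.11, SE; limma adjusted p = 0.00119). It overlapped the antisense RNA gene Tbx3os1, whose signal cannot be told apart here. Scaling set the size of this change, which was 0.73 with each library centred and 0.19 after quantile normalization (limma adjusted p = 0.0321). Of 4 MACS2 peaks inside it, in the same libraries, 2 were called higher, beside 6.30% of the mark's MACS2 peaks called in either direction. The one scored 1.99 and 1.64 in vehicle and 3.11 and 3.54 in AA (0.82, limma adjusted p = 0.00134). The other scored 1.89 and 1.87 against 3.18 and 4.13 (0.89, limma adjusted p = 0.000496). The remaining 2 were not called, with changes of 0.71 (limma adjusted p = 0.136) and 0.34 (limma adjusted p = 0.202, overlapping groups). H3K27ac over the same stretch scored 0.443 and 0.489 in vehicle and 0.546 and 0.495 in AA, above vehicle in both AA libraries but not called (change 0.14, limma adjusted p = 0.826).

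Pax8 was lower in H3K4me3 at a peak inside the gene. This peak (chr2:24468368-24470760), from 4839 to 7231 bp beyond the start site, scored 0.469 and 0.471 in vehicle and 0.185 and 0.241 in AA (change -1.07 ± 0.28, SE; limma adjusted p = 0.0142). Another 2 of its peaks, at the far end of the gene and 14027 bp beyond the start, had AA below vehicle as well, with changes of -0.73 and -0.76 that did not pass (limma adjusted p = 0.105 and 0.139). Of its 4 weaker peaks, 1 more had AA below vehicle (20177 bp beyond the start), 1 had AA above vehicle (36050 bp beyond the start, 0.0419 and 0.0379 in vehicle and 0.245 and 0.102 in AA, limma adjusted p = 0.274), and 2 overlapped. The 2 MACS2 peaks inside the called peak were not called (lowest limma adjusted p = 0.0826), nor was the one inside the Nkx1-2 peak (limma adjusted p = 0.230). H3K27ac at the called place scored 0.212 and 0.237 in vehicle and 0.222 and 0.247 in AA, and at the far end 0.420 and 0.316 against 0.405 and 0.434, with overlapping groups at both. At the middle place it scored 0.318 and 0.278 in vehicle and 0.273 and 0.227 in AA, with AA below vehicle (change -0.20, limma adjusted p = 0.821). The Pax8 promoter window lay in no peak of the 3 marks, and the gene had no H3K27me3 peak.

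Most other H3K4me3 peaks at these genes were lower in AA without passing the test. A change below 0 was seen at 90 of the 109 peaks (82.6%, beside 60.6% of all peaks), AA lay below vehicle in 47 (43.1%, beside 30.5%) and above in 6 (5.50%, beside 18.3%). The median change was -0.45, beside -0.19 for all peaks. At the strongest peak per gene, AA lay below vehicle in 17 of 49 (34.7%, beside 14.6%) and above in 4 (8.16%, beside 48.8%), and the median was -0.23, beside 0.19 for all genes. All 6 Dlx genes and the 5 Irx genes with a peak had a change below 0 there.

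Peak strength and depth moved with this difference. The weaker an H3K4me3 peak, the lower its change across all peaks, and peaks at these genes were weak: 14 of the 109 lay in the strongest quartile of all peaks. Within quartiles of mean score, from weakest to strongest, the median changes were -0.75, -0.50, -0.37 and -0.14 at these genes and -0.55, -0.32, -0.26 and 0.18 over all peaks. The member peaks held a median of 3.18 and 2.51 fragments per base in vehicle and 1.35 and 1.03 in AA. Without AA replicate 2 the medians were -0.23 at these genes and -0.10 over all peaks, and centring each library gave -0.23 and 0.02. The part of depth and of that library in the difference was not tested further.

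No marker gene of any cell type had a called H3K4me3 change at its strongest peak. For the 6 of 11 fibroblast genes with an H3K4me3 peak, the summed strongest-peak score was 1.5 and 1.62 in vehicle and 1.2 and 1.07 in AA, with Pdgfrb, Col1a2, Col3a1, Lum and Thy1 having no peak. The sum was 0.894 and 1.09 against 0.731 and 0.648 for 4 of 5 endothelial genes, and 0.874 and 0.881 against 0.671 and 0.452 for 4 of 7 genes of neurons and glia. The blood genes (4 of 7) gave 1.28 and 1.33 against 1.33 and 1.22, and the epithelial genes 8.74 and 8.29 against 10.3 and 8.95. Of the listed genes, 7 of 11 fibroblast and 6 of 7 neuron and glia genes carried H3K27me3 above the median score in vehicle. The part of other cells in the H3K4me3 difference was not tested.

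The differences below 0 that came closest to the threshold without passing were at genes with both marks. Dlx1, of the forebrain and pharyngeal arches, scored 0.334 and 0.366 in vehicle and 0.198 and 0.131 in AA (change -1.01, limma adjusted p = 0.0627), and Nkx6-1 0.443 and 0.388 against 0.234 and 0.199 (change -0.87, limma adjusted p = 0.0741). The groups did not overlap at either. On weaker peaks, Nkx2-4 (-1.14) and Tbx21 (-1.02) had changes of like size that were not called either. Apart from the called change of Tbx3 (given above), the highest changes were those of Pax7 (1.27, on a peak with a mean vehicle score of 0.0423), Nkx2-1 (0.35), Tbx6 (0.34) and Nkx6-3 (0.33), none of them called.

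Within a gene, different peaks could move apart. At Tbx1 the H3K4me3 peak over the start scored 0.450 and 0.491 in vehicle and 0.658 and 0.450 in AA, with overlapping groups, while the peak in the body scored 0.372 and 0.330 against 0.225 and 0.231, with AA below vehicle (change -0.57, limma adjusted p = 0.333). At Lhx1 the peak over its own start scored 0.420 and 0.428 in vehicle and 0.328 and 0.234 in AA (change -0.57, limma adjusted p = 0.261), and the peak shared with Aatf 0.594 and 0.476 against 0.704 and 0.643. Neither pair of peaks was tested for the difference between them.

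Set side by side, 47 genes had a peak of both marks. In 33 of them the change at the strongest peak was below 0 for H3K4me3 and above 0 for H3K27me3, in 8 both were above 0, in 4 both below 0, and in 2 the order was the reverse. Taken alone, 38 of 49 genes were below 0 for H3K4me3 and 47 of 54 above 0 for H3K27me3. The first order would thus be the most frequent even if the marks changed independently. The count does not show that they moved together within genes, which was not tested. The same count over all genes was not taken. Both signs depend on the scaling, since centring moves each H3K4me3 change up by 0.21 and each H3K27me3 change down by 0.11.

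H3K27ac gave no call among the 14 peaks, which lay at 8 genes, beside 0.2% of all H3K27ac peaks called in either direction, 0.155% higher and 0.0448% lower, and 0 of the 14 passed at an unadjusted p below 0.05 in limma, beside 7.71% of all peaks. AA lay above vehicle in 3 peaks (21.4%, beside 28.5%) and below in 2 (14.3%, beside 10.7%), and the median change was 0.03, beside 0.11 for all peaks. By gene, 0 of the 8 had a call, beside 0.453% of all genes with a peak called higher and 0.0575% lower. At the strongest peak AA lay above vehicle in 2 of the 8, Tbx3 and Tbx6, beside 40.1% of all genes with a peak, and below in 0, beside 5.6%. Tbx6 scored 0.173 and 0.170 in vehicle and 0.239 and 0.201 in AA, above vehicle without overlap, in the peak that also touches Ypel3.

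The enzymes and complexes that write or remove these marks were read in the same way, 45 genes in all. At the strongest peak, H3K4me3 was called higher at 3 of the 45, the H3K27 demethylase Kdm6a (change 0.48, limma adjusted p = 0.0267) and the H3K4 methyltransferases Setd1b (0.50, limma adjusted p = 0.0163) and Kmt2b (0.43, limma adjusted p = 0.0497), and lower at 1, Jarid2, a Polycomb repressive complex 2 partner (-0.51, limma adjusted p = 0.0195). Of all genes with a peak, 5.36% were called higher and 1.36% lower in this way. H3K27me3 was called lower at Jarid2 (-0.86) and higher at the Polycomb repressive complex 1 genes Cbx8 (0.46) and Kdm2b (1.53), of 23 with a peak, beside 0.265% of all genes lower and 2.53% higher. H3K27ac was called higher at Kdm2b (1.04), 1 of 43, beside 0.323% of all genes. None of Ezh2, Eed and Suz12, the core of Polycomb repressive complex 2, had a call at its strongest peak in any of the 3 marks.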

How the data were processed

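Libraries were grouped by their titles, and rows of the deposited table named as control were taken as vehicle, since no other group of the mark remained. The deposited signal gives each peak a score in every library, and the authors called peaks with SEACR and MACS2 on mm10, per the submitters' processing notes. Tool versions, the aligner and the scaling were not given in the sources. Scores times peak length were whole multiples of a library-specific step (tolerance 0.1 step), so score divided by step served as fragments per base.

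SEACR peaks were tested with limma 3.58.1 in R 4.3.3 with trend and robust settings, on log2(score + pseudocount) as deposited, in the 4 libraries of each mark. The pseudocount was the 5th percentile of positive values (0.0253 for H3K4me3, 0.0329 for H3K27me3, 0.0693 for H3K27ac), and it shrinks changes of weak peaks. With 2 against 2, an exact test cannot go below p = 0.333. The script was tested on simulated data. Tables and figures used Python 3.11.15.

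Members, lists, tests and alternatives were chosen with earlier results of these data known. Named genes are those with a called peak, the 5 largest and smallest changes and the 5 highest vehicle scores per mark, the highest per family, and a fixed set of 12. The peaks of Tbx1, Lhx1 and Pax8 beside the strongest or called ones, and Ezh2, Eed and Suz12, were chosen after their values were seen. Gene spans came from a RefSeq table of the same assembly.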

Additional observations from a re-analysis of the deposited data

How the results depend on the processing

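For H3K4me3, 3 member peaks were called, with 5 after quantile normalization, 0 in limma without trend and robust settings, 1 at a threshold of 0.01, and 0 to 17 when a library was left out: 0 without either vehicle replicate, 17 without AA replicate 1 and 9 without AA replicate 2. Of all H3K4me3 peaks, 2.92% were called, with 4.04% after quantile normalization, 0% without trend and robust settings and 0.922% at 0.01. Calls over all peaks also became rarer without either vehicle replicate and far more frequent without either AA replicate. The direction of these swings was thus shared with all peaks and is not particular to these genes. Centring kept the count at 3 but turned it from 1 higher and 2 lower to 2 higher and 1 lower, and over all peaks from 904 higher and 806 lower to 5557 and 549. For H3K27me3, 5 of 174 were called, beside 0.545% of all peaks, not matched for length. The count was 1 after centring (beside 0.0750%), 1 after quantile normalization (beside 0.156%) and 3 with a pseudocount at the 25th percentile (beside 0.364%). It was 0 without trend and robust settings (beside 0%), 2 at 0.01 (beside 0.240%) and 0 with MACS2 peaks (beside 0.547%). When a library is left out, a group holds 1 library, which limma assumes to vary like the others. For H3K27ac the count was 0 under all alternatives run. Without a vehicle replicate none of the 3 H3K4me3 calls (Tbx3, Pax8 and Nkx1-2) held. Of the 5 H3K27me3 calls, only that at Nkx1-2 held in any fit without a library. Calls over all peaks of the mark were rarer in those fits too.

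Replicate numbers were not paired by the labels, and deviations from the group means correlated at -0.0023 (H3K4me3), 0.0025 (H3K27me3) and 0.0085 (H3K27ac). With a replicate block the calls were 3 of 109, 6 of 174 and 0 of 14, beside 4.31%, 0.814% and 0.448% of all peaks. Each of the 8 called peaks passed there.

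H3K4me3 marked 33 genes, but 8 (14.3%, beside 55.3% of all genes) at a threshold of the 75th percentile and 8 (beside 49.7% of all) with MACS2 peaks, so that its share near that of all genes holds at the median threshold alone of these 3. H3K27me3 marked 49, but 20 (35.7%, beside 1.54% of all) with MACS2 peaks. H3K27ac marked 3, but 8 (beside 64.3% of all) when any peak counted, 1 (beside 11.3% of all) with MACS2 peaks, and 3 to 5 when a vehicle library was left out. No called change turned its direction under any alternative run. The cause of these differences was not tested.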
